A study of Homo sapiens with 6 samples.

Results

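The genes described here are 10 members of the fibroblast growth factor (FGF), hepatocyte growth factor receptor (MET), platelet-derived growth factor (PDGF) and vascular endothelial growth factor (VEGF) systems. They are the receptors FGFR1, FGFR2, FGFR3 and MET, the ligands FGF2, PDGFA, PDGFB, VEGFA and VEGFC, and the FGF carrier protein FGFBP1. They were chosen by name, and all 10 were found among the 18404 genes tested, each with 1 probe set. Expression was measured on 6 arrays of HaCaT, an immortalised line of human keratinocytes, which is a single line. Of these, 3 arrays carried RNA of cells given an shRNA control vector (shControl) and 3 carried RNA of cells given shRNA against TP63 (shTP63), all delivered by lentivirus 72 hours earlier. TP63 encodes p63, the master transcription factor of basal keratinocytes, and the series asks how p63 and ACTL6A act on Hippo-YAP signalling in squamous carcinoma. TP63 itself was not analysed here, so every direction rests on the sample labels, which name no hairpin and no separate cultures, and the spread behind each p-value may therefore be technical.

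All of these receptors are tyrosine kinases that dimerise when ligand binds and pass the signal through adaptors such as GRB2 and SOS to the RAS-ERK and PI3K pathways. FGFs need heparan sulfate to bind their receptors, and in the skin the epithelial splice form of FGFR2 receives FGF7 and FGF10 from the dermis. MET is the receptor of HGF, which is made by stromal cells and drives scattering and wound closure. Keratinocytes secrete PDGF and VEGF to act mainly on neighbouring fibroblasts and vessels, since those cells carry the PDGF and VEGF receptors.

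In shTP63, 5 of the 10 genes rose and 3 fell, while FGFR1 and FGF2 did not pass the test. MET, PDGFB and VEGFC had the largest rises, of 1.74-fold, 1.56-fold and 1.31-fold, and VEGFA and FGFR2 rose by less. FGFR3 fell 1.24-fold, FGFBP1 1.21-fold and PDGFA 1.13-fold. The test was limma's moderated test across all 18404 genes, with Benjamini-Hochberg adjustment and a threshold of 0.05. The background was high: 41.5% of all genes passed, 16.4% rising and 25.1% falling, so a call in itself sets no gene apart. The median difference of the 10 genes was 0.13 on the log2 scale against -0.013 over all genes. Centring each array on the median of all its probe sets, tested or not, shifted the median difference of all genes to -0.12. With it, 3 of the 10 genes rose and 3 fell. Those array medians were 7.44 to 7.47 in shControl and 7.54 to 7.57 in shTP63 (log2 intensity).

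The upstream windows of the 4 members below are shown because MET and VEGFC are the largest risers, and FGFR3 and FGFBP1 the largest fallers, for which sequence was at hand from a single annotated start. Each is the 250 bases before the RefSeq start (GRCh38.p14), read 5′ to 3′ on the gene's strand: MET at chr7:116671946-116672195 (plus strand), VEGFC at chr4:176792923-176793172 (minus), FGFR3 at chr4:1793043-1793292 (plus) and FGFBP1 at chr4:15938741-15938990 (minus). Capitals mark GC boxes (GGGCGG or its reverse complement CCGCCC), the letters that Sp1-type factors bind.
MET: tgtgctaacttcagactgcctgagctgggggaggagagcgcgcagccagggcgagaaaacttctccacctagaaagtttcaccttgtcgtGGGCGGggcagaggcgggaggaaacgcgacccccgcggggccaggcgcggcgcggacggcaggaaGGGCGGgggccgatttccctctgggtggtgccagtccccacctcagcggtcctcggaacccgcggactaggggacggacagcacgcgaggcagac
VEGFC: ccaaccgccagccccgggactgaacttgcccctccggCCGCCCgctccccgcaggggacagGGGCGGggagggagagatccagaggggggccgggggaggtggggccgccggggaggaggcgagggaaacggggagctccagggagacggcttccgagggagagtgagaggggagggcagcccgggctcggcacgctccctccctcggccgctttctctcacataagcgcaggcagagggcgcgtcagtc
FGFR3: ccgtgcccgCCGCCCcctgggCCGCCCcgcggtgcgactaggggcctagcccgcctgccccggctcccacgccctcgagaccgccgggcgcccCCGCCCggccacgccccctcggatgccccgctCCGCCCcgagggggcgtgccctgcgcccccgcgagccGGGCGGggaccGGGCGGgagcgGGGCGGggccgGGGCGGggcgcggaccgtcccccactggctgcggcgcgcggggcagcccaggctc
FGFBP1: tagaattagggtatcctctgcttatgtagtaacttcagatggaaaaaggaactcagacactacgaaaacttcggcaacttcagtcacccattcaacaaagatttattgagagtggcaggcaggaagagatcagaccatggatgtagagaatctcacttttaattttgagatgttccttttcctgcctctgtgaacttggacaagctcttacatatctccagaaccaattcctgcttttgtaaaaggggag

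The FGFR3 window held 8 GC boxes and 86.8% G and C. The MET and VEGFC windows held 2 GC boxes each, with 68.4% and 74.0% G and C. FGFBP1 differed in composition, with no GC box and 40.8% G and C, where the median over all 35116 windows of this length was 58.0%. A GC box was present in 42.6% of all windows. Also searched on both strands were TGANTCA (AP-1, in 6.57% of windows), GGAATG (TEAD, 11.9%), TATAAA (10.7%), ACGTG (the hypoxia response core, 18.5%) and CATG repeated after 6 bases (a paired core of the p53 family, 0.296%). None of these letters occurred in the 4 windows, which says nothing about binding elsewhere. Sequence was matched for 7 of the 10 members, and FGFR2 and PDGFA have several starts.

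**Figure D1:**
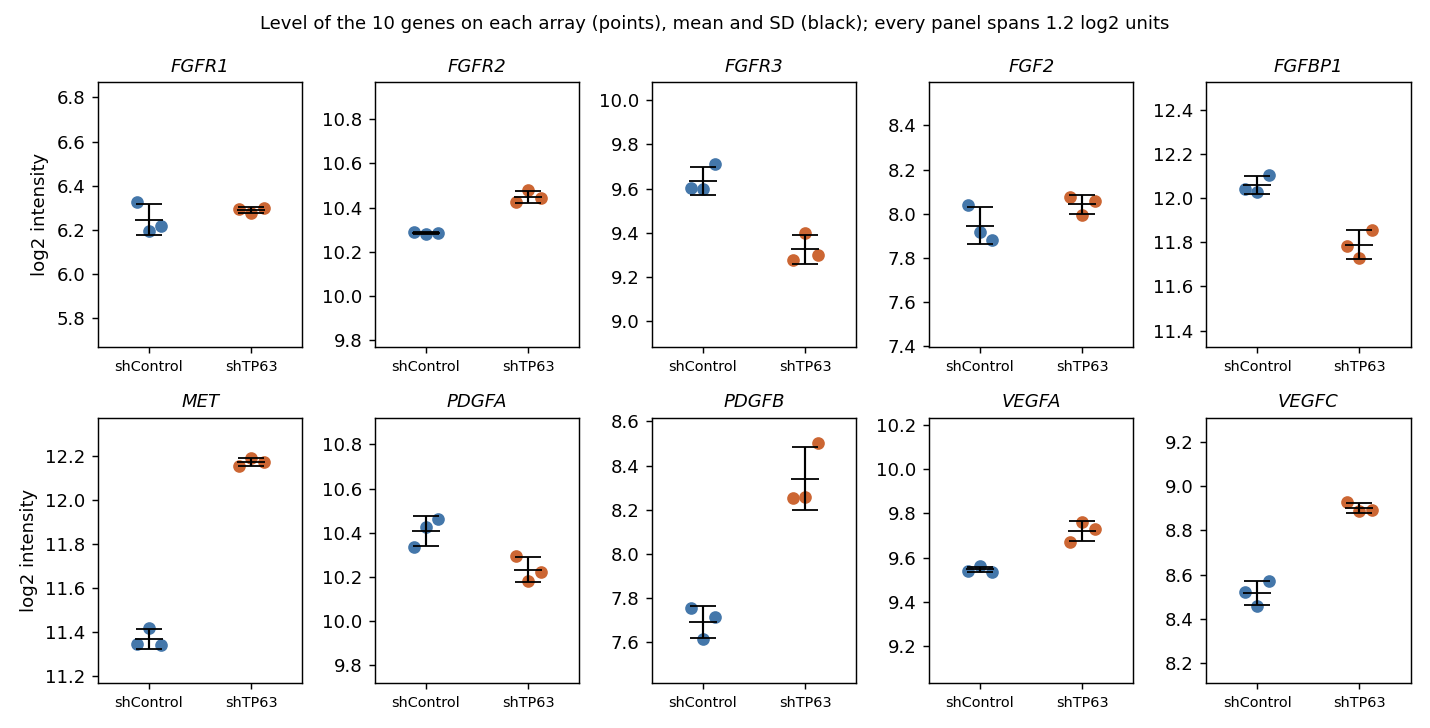
Log2 intensity of each of the 10 genes on the 6 arrays, with shControl in blue and shTP63 in orange, and the mean and SD (n = 3) in black. The 3 shTP63 points lie above all shControl points for MET, PDGFB, VEGFC, VEGFA and FGFR2, below them for FGFR3, FGFBP1 and PDGFA, while the groups overlap for FGFR1 and FGF2.

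Among the receptors, MET changed most. Its log2 intensity was 11.35, 11.42 and 11.34 on the shControl arrays and 12.15, 12.19 and 12.17 on the shTP63 arrays. The lowest shTP63 array lay far above the highest shControl array. The difference was 0.80 ± 0.043 (SE, limma adjusted p = 3.19e-06), and 289 of the 18404 genes had a larger difference in either direction. The groups did not overlap for 8 of the 10 members, 5 with shTP63 higher and 3 with it lower, and the same held for 51.4% of all genes (20.9% higher and 30.4% lower). In bulk RNA a change in the number of cells that express a gene and a change in RNA per cell cannot be told apart.

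FGFR2 and FGFR3, the FGF receptors of the epidermis, went opposite ways. FGFR2 stood at 10.29, 10.28 and 10.29 in shControl and at 10.43, 10.48 and 10.44 in shTP63 (log2 intensity). All shTP63 values were higher, by a small amount: 0.16 ± 0.041 (SE, limma adjusted p = 0.0106), or 1.12-fold. The call was lost with arrays centred on their medians (difference 0.055, adjusted p = 0.303). The probe set does not separate the epithelial from the mesenchymal splice form.

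FGFR3 read 9.60, 9.60 and 9.71 in shControl and 9.28, 9.40 and 9.30 in shTP63. Every shTP63 array was lower. The log2 difference was -0.31 ± 0.053 (SE, limma adjusted p = 0.00133), and the call held in all 15 alternatives, with differences from -0.42 to -0.21. The difference between the FGFR2 and FGFR3 changes, taken within each array so that a shift of a whole array cancels, was 0.47 ± 0.043 (SE, n = 3 per group). An exact two-sided permutation test over the arrays gave p = 0.10, the smallest that 3 against 3 allows, for this and for the other 2 pairs tested below, and 0.10 after adjustment over the 3 pairs, which were chosen after the values were seen.

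FGFR1, the FGF receptor typical of mesenchymal cells, read 6.32, 6.19 and 6.22 in shControl and 6.29, 6.28 and 6.30 in shTP63. The groups overlapped, and the difference of 0.045 had a 95% interval of -0.064 to 0.15 (limma adjusted p = 0.508). All values lay under 6.76, the 95th percentile of the mean levels of 340 olfactory receptor genes, which served as a measure of background, so a true change could be compressed.

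Of the FGF side, the carrier FGFBP1, which releases FGFs from heparan sulfate in the matrix, was lower. It read 12.04, 12.03 and 12.11 in shControl and 11.78, 11.73 and 11.86 in shTP63, without overlap. The gene fell by 0.27 (SE 0.049, limma adjusted p = 0.00196) and held its call in all 15 alternatives. FGF2, a broadly acting ligand of the FGF receptors, gave 8.04, 7.92 and 7.88 in shControl against 8.08, 7.99 and 8.06 in shTP63. These overlapped, with a difference of 0.096 (95% interval -0.024 to 0.22, limma adjusted p = 0.188), and the sign turned under 2 scalings. FGF2 overlaps NUDT6, a gene of the opposite strand, so the share of each in the signal is uncertain. In RefSeq MET also overlaps COMETT and LOC124901824, VEGFC overlaps HAFML, FGFR1 overlaps LOC102723716 and RPS20P22, and PDGFA overlaps PDGFA-DT among others, and whether these add to the signal was not tested.

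The PDGF ligand genes moved in opposite directions. PDGFB, whose product is the B chain that binds both PDGF receptors, read 7.75, 7.61 and 7.71 in shControl and 8.26, 8.26 and 8.50 in shTP63. Replicate 3 of shTP63 was the highest, and all shTP63 values lay above shControl. The rise was 0.65 ± 0.073 (SE, limma adjusted p = 0.000141), and it ranged from 0.54 to 0.69 over the 15 alternatives, all called.

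PDGFA, the A chain gene, read 10.34, 10.43 and 10.46 in shControl and 10.29, 10.18 and 10.22 in shTP63. The gap between the groups was narrow, with the highest shTP63 array just under the lowest shControl array. It fell by 0.18 (SE 0.052, limma adjusted p = 0.0231), and passed in 7 of 15 alternatives. The call was lost without shControl replicate 2 (adjusted p = 0.0732) or 3 (0.0901), without shTP63 replicate 2 (0.0801) or 3 (0.0546), and after quantile normalization over all probe sets (0.0637) or over probe sets with 1 gene (0.177) and cyclic loess (0.253). Within arrays the change of PDGFB exceeded that of PDGFA by 0.82 ± 0.12 (SE, n = 3 per group), or 1.77-fold.

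Both VEGF ligand members rose. VEGFC, the ligand best known for lymphatic vessel growth, read 8.52, 8.46 and 8.57 in shControl and 8.93, 8.89 and 8.89 in shTP63. The groups were well separated, by 0.39 ± 0.046 (SE, limma adjusted p = 0.000167), and the call held in all 15 alternatives.

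VEGFA, the main inducer of blood vessel growth, read 9.54, 9.56 and 9.54 in shControl and 9.67, 9.76 and 9.73 in shTP63. Every shTP63 array was higher, and the rise of 0.17 ± 0.044 (SE, limma adjusted p = 0.0108) was lost with arrays centred on their medians (difference 0.066, adjusted p = 0.243). The change of VEGFC exceeded that of VEGFA within arrays by 0.21 ± 0.056 (SE, n = 3 per group).

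**Figure D2:**
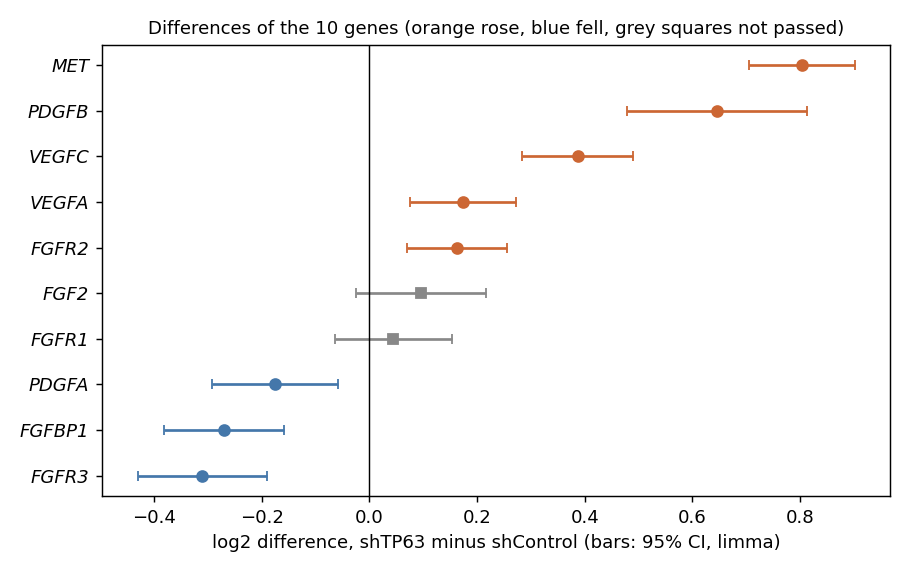
Log2 difference, shTP63 minus shControl, of each of the 10 genes with its 95% interval from limma, ordered by size. The values run from -0.31 for FGFR3 to 0.80 for MET, and the intervals of FGFR1 and FGF2 include 0.

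Differences depended on brightness across the array. Among genes ranked by mean level into 5 equal bins, the brightest bin, which held MET, FGFBP1, FGFR2 and PDGFA, had 25.3% rising, 44.0% falling and a median difference of -0.098. In the next bin, with FGFR3 and VEGFA, 18.5% rose and 43.0% fell, with a median of -0.10. MET, FGFR2 and VEGFA thus rose in bins where more genes fell than rose. The falls of FGFBP1, PDGFA and FGFR3 had the direction that was more common in those bins. PDGFB, VEGFC and FGF2 lay in the middle bin, where the median was -0.00036, and FGFR1 in the next dimmest.

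**Figure D3:**
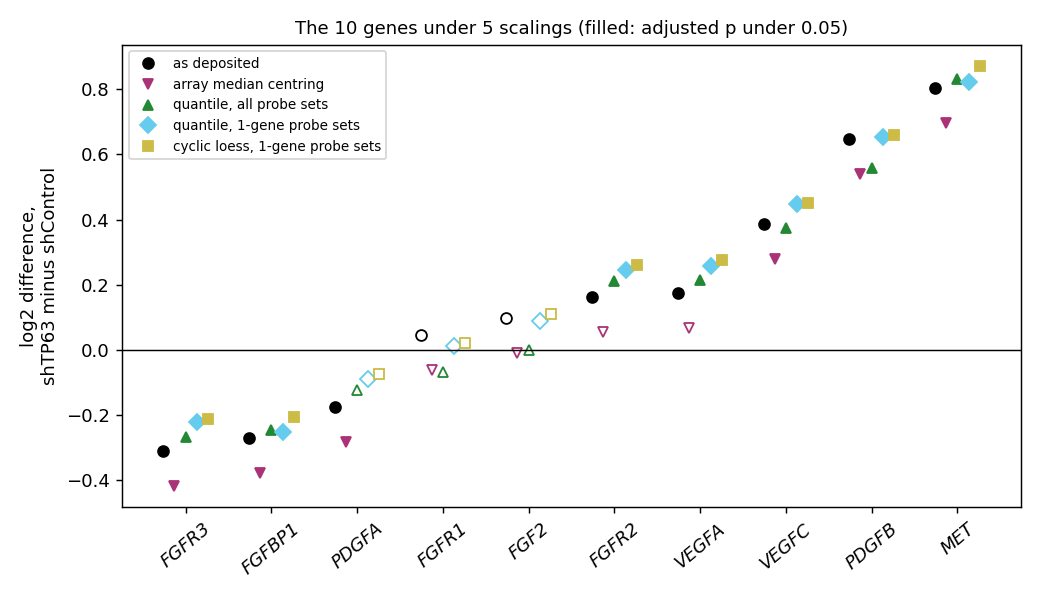
Log2 difference of the 10 genes on the deposited scale and under 4 other scalings, with filled symbols for an adjusted p under 0.05. MET, PDGFB, VEGFC, FGFR3 and FGFBP1 were called under all 5, FGFR2 and VEGFA were lost with array median centring, PDGFA was called under 2, and FGFR1 and FGF2 crossed 0.

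The partner genes of these pathways were drawn from 7 lists with 78 genes, of which 74 were measured. Of these, 16 rose and 16 fell (43.2%, close to the background of 41.5%), with a median difference of 0.011. After centring on the array median, 9 rose and 27 fell. By list, 69.2% of adaptors and enzymes were called, 66.7% of the HGF axis and 57.1% of VEGF partners. The other shares were 56.25% of heparan sulfate genes, 40% of PDGF partners, 16.7% of FGF receptor relatives and 14.3% of other FGF genes. Calls were more frequent among brighter genes. In the dimmest level bin 6.36% of genes rose and 4.43% fell, in the brightest 25.3% and 44.0%.

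The HGF axis showed 3 rises and 1 fall among 6 genes. SPINT2 and SPINT1 encode HAI-2 and HAI-1, the membrane inhibitors of the serine proteases that activate HGF. SPINT2 rose from 10.67 ± 0.054 to 11.17 ± 0.034 in log2 intensity (SD, n = 3), or by 0.51. SPINT1 rose from 12.05 ± 0.017 to 12.44 ± 0.042, or by 0.39. MST1R, which encodes the MET relative RON, rose by 0.30 (SE 0.077, limma adjusted p = 0.0110), a call lost with centring (adjusted p = 0.0530). HGF itself lay under the background level in both groups, at 4.82 ± 0.033 and 4.90 ± 0.026, and did not pass (limma adjusted p = 0.191). MST1, the ligand of RON, named after its value was seen, fell by 0.16 and passed in 7 of 14 alternatives. It was lost without shControl replicate 1 (adjusted p = 0.0969) or 3 (0.0744), or without shTP63 replicate 1 (0.0618), 2 (0.0508) or 3 (0.0712). The call of MST1 was also lost with the replicate block and with the trended robust prior.

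**Figure D4:**
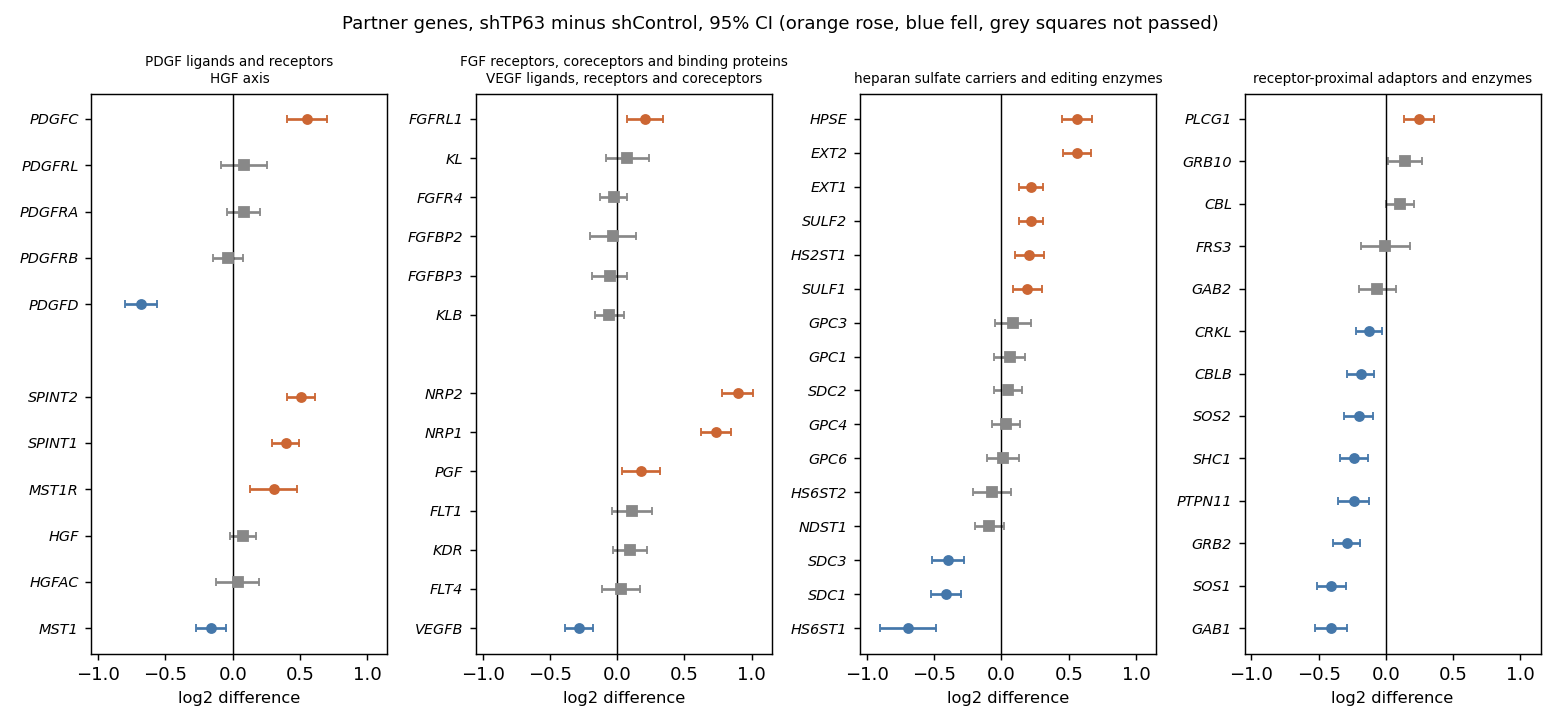
Log2 difference, shTP63 minus shControl, with 95% intervals for partner genes of 6 of the 7 lists (the list of other FGF genes is not drawn). NRP2 and NRP1 have the largest rises, at 0.90 and 0.74, and HS6ST1 and PDGFD the largest falls, at -0.69 and -0.68.

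Of 7 measured VEGF partners, 3 rose and 1 fell. The neuropilins, coreceptors for VEGFs and semaphorins, had the largest rises of all partner genes. NRP2 read 9.10, 9.11 and 9.11 in shControl and 9.93, 9.99 and 10.09 in shTP63, so it rose 1.86-fold (limma adjusted p = 3.72e-06). NRP1 read 8.33, 8.35 and 8.33 in shControl and 9.01, 9.06 and 9.16 in shTP63, a 1.67-fold rise (limma adjusted p = 9.47e-06). For both, every shTP63 array lay above every shControl array.

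The VEGF receptor kinases FLT1, KDR and FLT4 did not pass. FLT1 differed by 0.11 (95% interval -0.034 to 0.26) and KDR by 0.095 (-0.029 to 0.22), both from levels under background in both groups. FLT4 differed by 0.030 (-0.11 to 0.17). FLT1 passed as higher in 1 of 14 alternatives, without shTP63 replicate 1. VEGFB fell from 9.48 ± 0.051 to 9.20 ± 0.029 (SD, n = 3), or by 0.28 (limma adjusted p = 0.000992). PGF, placental growth factor, named after its value was seen, rose by 0.18 and passed in 5 of 14 alternatives. That call ended without shControl replicate 2 (adjusted p = 0.159) or 3 (0.0634), or without shTP63 replicate 1 (0.0756) or 3 (0.136).

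PDGFC and PDGFD, the PDGF ligands that need proteolytic activation, were also split. PDGFC read 8.18, 8.26 and 8.40 in shControl and 8.82, 8.77 and 8.91 in shTP63, a rise of 0.55 (SE 0.064, limma adjusted p = 0.000158). PDGFD read 8.03, 8.18 and 8.08 in shControl and 7.37, 7.47 and 7.41 in shTP63, so it fell by 0.68 (SE 0.053, limma adjusted p = 1.81e-05). Neither pair of groups overlapped. PDGFRA, with both groups under background, differed by 0.081 (95% interval -0.039 to 0.20), and PDGFRB by -0.033 (-0.15 to 0.080). PDGFRB passed as lower in 2 of 14 alternatives, array median centring and quantile normalization over all probe sets.

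Of 21 other FGF genes, not all of which encode receptor ligands, 1 rose and 2 fell, and 12 had mean levels under background. FGF1 fell by 0.35 and FGF12, an intracellular FGF relative that is not secreted, by 0.28, both with all values under background. FGF4 rose by 0.16 and passed in 8 of 15 alternatives, but not without shControl replicate 2 (adjusted p = 0.104) or 3 (0.156) or shTP63 replicate 2 (0.105) or 3 (0.116). Nor did FGF4 pass with the replicate block, array median centring or quantile normalization over all probe sets. The dermal FGFR2 ligands FGF7 and FGF10 were under background in both groups, at 4.18 ± 0.072 and 5.77 ± 0.11 in shControl (SD, n = 3), and did not pass (limma adjusted p = 0.904 and 0.184), although FGF10 passed without shControl replicate 1 (adjusted p = 0.0431). Among 6 FGF receptor relatives, coreceptors and carriers only FGFRL1, a receptor without a kinase domain, passed, with a rise of 0.21 (limma adjusted p = 0.0218). That rise held in 10 of 15 alternatives, and not without shControl replicate 2 (adjusted p = 0.0794) or 3 (0.0734) or shTP63 replicate 2 (0.0744). The call was also lost with the replicate block and with array median centring.

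Heparan sulfate genes, whose products hold FGFs, VEGFs and PDGFs at the cell surface, showed 6 rises and 3 falls among 16. That is 56.25% called, where 41.5% of all genes were called. EXT2, a chain polymerase subunit, rose by 0.56 (SE 0.047) and HPSE, the heparanase that cuts the chains, by 0.56 (SE 0.049). The cell surface carrier SDC1 (syndecan-1) fell from 10.67 ± 0.0091 to 10.26 ± 0.079 (SD, n = 3), or by 0.41 (limma adjusted p = 0.000195). Named after their values were seen, the 6-O-sulfotransferase gene HS6ST1 fell by 0.69 and SDC3 by 0.40, whereas SULF2 and SULF1, which remove 6-O-sulfates, rose by 0.22 and 0.19. EXT1 and HS2ST1, named likewise, rose by 0.22 and 0.21, and HS6ST2, under background in both groups, did not pass. Sulfation itself was not tested. SULF1, SULF2 and HS2ST1 lost their calls with centring, and SULF1 also after quantile normalization over all probe sets.

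Adaptors and enzymes next to the receptors were mostly lower, with 8 of 13 falling and 1 rising, at a median of -0.19. Of the list 69.2% passed, and over all genes 41.5% passed, with 25.1% falling and 16.4% rising. SOS1, the RAS exchange factor, fell by 0.40 (SE 0.048), the docking protein gene GAB1 by 0.41 (SE 0.052), and GRB2 by 0.29 (SE 0.044), with limma adjusted p of 0.000175, 0.000263 and 0.000666. The single rise, named after its value was seen, was that of PLCG1, phospholipase C gamma, at 0.25. Of the 8 falls, those of SHC1, CBLB, SOS2 and CRKL were lost after cyclic loess, and CRKL also without any 1 of the 6 arrays (adjusted p from 0.0531 to 0.114). CRKL was lost too with the replicate block and after quantile normalization over all probe sets or over probe sets with 1 gene. SHC1, CBLB, SOS2 and CRKL were named after their values were seen. Most of the list lay in the brightest level bin or the next. In these bins 44.0% and 43.0% of genes fell, with median differences of -0.098 and -0.10.

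Keratinocyte markers were well above background on every array, while those of the cells that usually carry PDGF and VEGF receptors lay on both sides of it. The mean over 8 measured keratinocyte markers was 12.66 to 12.69 in shControl and 12.52 to 12.55 in shTP63 (log2 intensity). Of these 8, 2 rose and 4 fell. All 8 lay in the brightest level bin, where 25.3% of genes rose and 44.0% fell. Over all genes, the background for the other marker lists, 16.4% rose and 25.1% fell. LAMB3 rose by 0.33 and ITGB4 by 0.21. SFN fell by 0.60, KRT5 by 0.50, KRT14 by 0.35 and DSG3 by 0.31, while DSC3 and PERP did not pass. Of 12 fibroblast markers, 7 had mean levels under background, 3 rose and 1 fell, with list means of 6.41 to 6.51 in shControl and 6.53 to 6.59 in shTP63. Of 10 endothelial markers, 6 lay under background, 2 rose and 1 fell, with list means of 6.67 to 6.76 and 6.70 to 6.81. The endothelial marker PECAM1 and the fibroblast marker POSTN were under background on all arrays, whereas CDH5, at a mean of 9.53, EGFL7 and CLDN5 (endothelial) and COL1A1, at 8.49, and LUM (fibroblast) were above it. PDGFRA, PDGFRB, KDR and FLT1 belong to these marker lists too. Of 9 measured immune markers 2 rose and 0 fell, with 6 under background. The rises were those of CD68, by 0.75 (SE 0.056), and CD14, by 0.70 (SE 0.064), which among the 10 growth factor genes only MET exceeded. Of 5 melanocyte markers 1 rose and 0 fell, with 3 under background. The markers given by name were chosen after their values were seen. All 6 arrays are labelled as HaCaT alone, and the source of these marker signals was not tested.

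The genes nearest in pattern to MET and to FGFR3 were found by the root mean square distance over the 6 arrays, after centring each gene on its own mean. For MET they were CTSV (cathepsin V) at 0.024, SNORD4B, a small nucleolar RNA gene that lies within RPL23A and may share its signal, at 0.025, and F3 (tissue factor) at 0.028 log2 units. CTSV rose by 0.82, SNORD4B by 0.83 and F3 by 0.79. For FGFR3 they were TMEM203 at 0.021, WHR1 at 0.022 and ZNF485 at 0.027, which fell by 0.29, 0.31 and 0.33. With 6 arrays in 2 groups, such nearness mainly reflects an equal group difference.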

How the data were processed

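The deposited intensities were made by the authors with RMA (background correction, normalization and probe summary) in R 2.15.1, per the submitters' processing notes, and are on a linear scale, with a column per array. The genome build is not given in the sources used here. All 6 columns were used, and log2 was taken. Groups came from the sample titles. Of 32321 probe sets, 19158 had 1 gene in the platform annotation, 1388 several and 11775 were unlisted; the last 2 kinds entered no test. For each gene the probe set with the highest mean was used, which left 18404 genes. shTP63 was set against shControl in limma 3.58.1 under R 4.3.3 (lmFit, eBayes, no covariate, two-sided). Benjamini-Hochberg adjustment ran over all genes, at a threshold of 0.05. Arrays give no counts, so their number limits the precision; the median SE was 0.053. The fit was tested on simulated data.

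The members and lists were chosen with earlier results of these data known. Named were all members, up to 3 passing genes per list with the smallest adjusted p, ligands or receptors of members, and the 3 genes nearest in pattern to the largest riser and faller; others are marked. Partner genes FRS2, CRK, VEGFD and SDC4 had no probe set of their own and were not analysed here. Promoter windows came from RefSeq. Alternatives were a replicate block, 4 scalings, leaving out the dimmest 40% of genes, averaged probe sets, a trended robust prior, array weights and each array left out. Array median centring used the median of all 32321 probe sets, including those that entered no test.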

Additional observations from a re-analysis of the deposited data

How the results depend on the processing

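MET, PDGFB, VEGFC, FGFR3 and FGFBP1 kept direction and call in all 15 alternatives. Of these, averaging probe sets cannot move a member's difference, as each member has 1 probe set. The replicate block, the filter on dim genes and the trended robust prior also leave the difference as it is and change only its test. Array median centring changed the counts most: 1782 genes rose and 7932 fell, against 3015 and 4619 on the deposited scale, 3 members rose, and 9 partner genes rose and 27 fell. Falls made up 81.7% of calls with centring, 69.0% after quantile normalization over all probe sets, 52.8% over probe sets with 1 gene and 49.7% after cyclic loess, against 60.5%. Of the 42 partner genes that did not pass, 28 turned sign in at least 1 alternative. Among those named in the report and the members, with centring FGFR1 became -0.063, FGF2 -0.011, HGF -0.031, PDGFRA -0.027, KDR -0.012 and FLT4 -0.077. After quantile normalization over all probe sets FGFR1 became -0.067, FGF2 -0.00046, PDGFRA -0.016 and FLT4 -0.083. FLT4 was -0.0030 after quantile normalization over probe sets with 1 gene and from -0.019 to 0.089 with 1 array left out, negative without shTP63 replicate 2. FGF7 became 0.0024 with cyclic loess and 0.0036 with that same quantile normalization, and ranged from -0.047 to 0.025 with 1 array left out. The causes were not tested. The 3 differences within arrays moved by less than the spread between replicates in 9 alternatives, and centring cannot move them.

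With the replicate number as a block, 7165 genes and 7 members passed, and PDGFA was lost (adjusted p = 0.0536). Deviations of same-numbered samples correlated at -0.15, -0.037 and 0.13 over genes, and those of differently numbered samples at -0.14 to 0.16. With 3 samples per group these values cannot decide whether the numbers pair the samples, and the labels do not say. FGFR1 has no value with the dimmest 40% of genes left out. Dim genes such as FGFR1, HGF and FLT1 are limited by signal over background.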
